A study of Mus musculus with 6 samples.

Results

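The aminoacyl-tRNA synthetase genes were examined in mouse Th1 cells cultured with or without ALX-5407. They were chosen by name, as the protein-coding genes whose symbol is an amino acid letter followed by "ars", with or without the suffix 1 or 2, together with Eprs, Ears2, Farsa, Farsb, Fars2 and Pars2. The rule found 37 of the 54532 genes listed, 20 without the suffix 2, called cytosolic here, and 17 with it, called mitochondrial. All 37 passed the filter on low counts, which left 15938 genes for testing.

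CD4+ T cells were taken by negative bead selection from spleens of male C57BL/6 mice aged 6 to 8 weeks. They were cultured for 72 h under Th1 conditions, with anti-CD3, anti-CD28, IL-2, IL-12 and an antibody against IL-4. In 3 cultures (Th1) the cells received no inhibitor but the DMSO vehicle, and in 3 others (ALX-5407) ALX-5407 was added at 500 nM, a compound that blocks the transporter GlyT1, the product of Slc6a9, through which cells take up glycine. The sample labels call the 3 cultures of a group biological replicates without saying whether they came from separate mice, so the p-values measure the spread between cultures. The exposure to ALX-5407 is given as 72 h in the series description and as a shorter time in the study's methods, and the labels describe poly-T bead selection of mRNA where the methods describe depletion of ribosomal RNA.

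Aminoacyl-tRNA synthetases join each amino acid to its tRNA and so supply the ribosome with charged tRNA. Mitochondria have a protein synthesis of their own and use, for most amino acids, synthetases encoded by separate nuclear genes, which carry the suffix 2. Gars and Kars are exceptions, since each of these genes gives both the cytosolic and the mitochondrial enzyme, and mitochondrial glutaminyl-tRNA is made indirectly, with Ears2 and an amidotransferase. In cells short of amino acids, the kinase GCN2 and the transcription factor ATF4 raise the transcription of many cytosolic synthetase genes together with genes of amino acid uptake and synthesis.

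The 6 libraries held 30801753 to 36727788 counts, and levels are given as CPM, that is, counts scaled to library size with TMM factors. The summed CPM of 8 T cell markers was 2942 to 3160 in Th1 and 3058 to 3089 in ALX-5407 cultures. That of 5 Th1 markers was 760 to 805 in Th1 and 692 to 722 in ALX-5407 cultures. These sums hid changes in both directions in the test described below. Of the T cell markers, Cd28 (log2 fold change 0.52) and Thy1 (0.27) rose, Cd4 (-0.46), Cd3d (-0.39) and Cd3g (-0.35) fell, and 3 did not pass. Of the Th1 markers, Tbx21 (0.34) rose, Stat4 (-1.16) and Il18r1 (-0.76) fell, and 2 did not pass. Markers of other cells were low, with 2 CD8 markers at 9.25 to 9.59 and 6.71 to 8.87 CPM, 5 B cell markers at 7.60 to 8.84 and 11.4 to 14.4 CPM, and 4 NK markers at 1.92 to 3.41 and 4.96 to 5.58 CPM. The 6 myeloid markers summed to 85.1 to 96.1 CPM in Th1 and 29.9 to 36.9 CPM in ALX-5407 cultures, almost all of it from Ly6g and Cd68, while Lyz2 stood at 0.0325 and 0.0939 CPM. The 4 dendritic markers stayed at or below 1.05 CPM and the 3 erythroid markers at or below 0.26 CPM, with Siglech at 0 in all 6 libraries. Their part in the changes of the synthetase genes was not tested, and in bulk RNA fewer cells of a type and less RNA per cell cannot be told apart.

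Most cytosolic synthetase genes were higher in ALX-5407-treated Th1 cells, by less than 2-fold, and the mitochondrial genes were divided between higher and lower. Of the 20 cytosolic genes, 14 rose, 1 fell and 5 did not pass the test (edgeR's quasi-likelihood test, Benjamini-Hochberg adjusted p under 0.05 over all genes tested). Of the 17 mitochondrial genes, 7 rose, 4 fell and 6 did not pass. Among all genes tested the same rule called 47.7%, with 24.5% higher and 23.2% lower. Of the 12441 protein-coding genes tested, 3667 were higher and 2887 lower. The median log2 fold change was 0.26 for the cytosolic and 0.14 for the mitochondrial genes, beside 0.0053 for all genes tested and 0.052 for protein-coding ones. The mitochondrial median was 0.036 without ALX-5407 culture 1 and 0.049 with a correction for gene length.

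The CPM ranges of the groups did not overlap for 26 of the 37 genes, of which 15 were cytosolic and 11 mitochondrial, against 55.5% of all genes tested. Among protein-coding genes alone this held for 7481 of the 12441 tested. None of the 37 passed the study's fold threshold, an absolute log2 fold change over 1 together with the adjusted p, which 1600 of all genes tested (10%) passed. Wars and Mars2 lay near this limit and passed it in some alternatives, Wars with scaling to total counts (1.04) and without Th1 culture 2 (1.04), and Mars2 without Th1 culture 3 (1.04). The 37 log2 fold changes ran from -0.51 for Tars2 to 0.98 for Wars. Whether the cytosolic and mitochondrial lists differ from each other or from other genes was not tested.

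**Figure D1:**
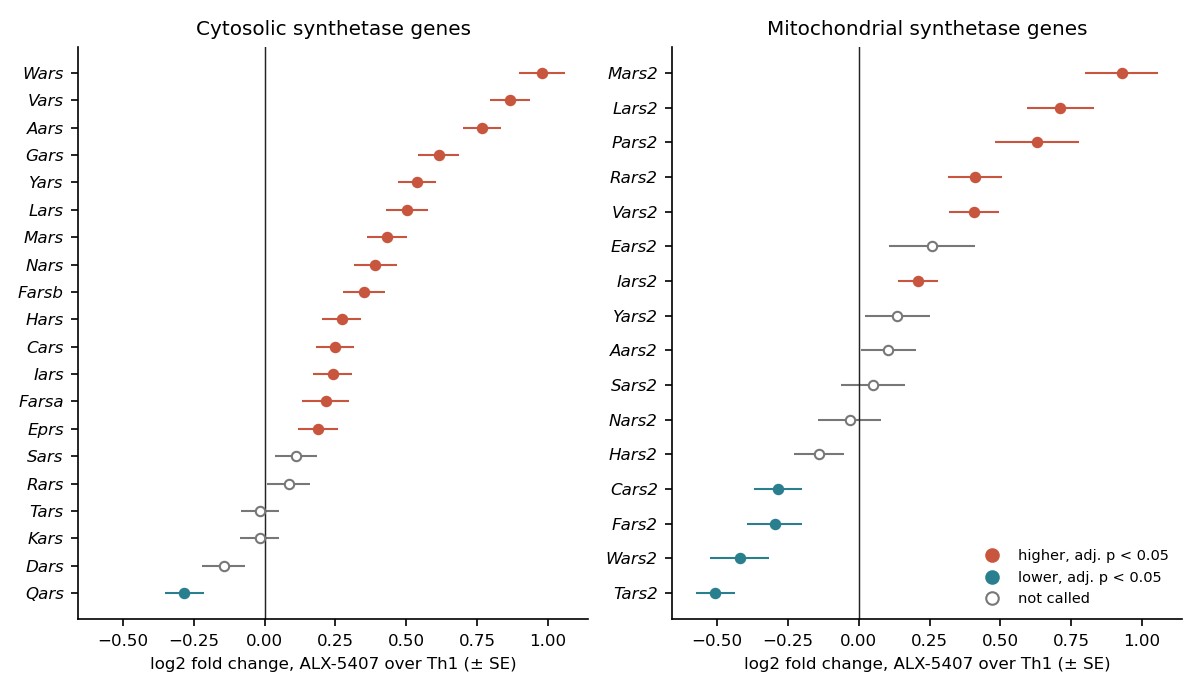
Log2 fold change of ALX-5407 over Th1 cultures (x axis, points with bars of 1 SE) for the 20 cytosolic and 16 of the mitochondrial synthetase genes, ordered by size. Filled points passed adjusted p under 0.05; 14 cytosolic genes lie to the right of 0 and only Qars to the left among those that passed, while the mitochondrial genes shown that passed are 6 to the right and 4 to the left.

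The 6 cytosolic genes with the smallest p-values all rose. Wars, the tryptophanyl enzyme on chromosome 12 (108860030 to 108894174, GRCm38), was counted at 50.7, 55.4 and 45.3 CPM in the Th1 cultures and at 99.5, 96.4 and 102 CPM in the ALX-5407 cultures. Every ALX-5407 culture thus lay far above every Th1 culture, and the log2 fold change was 0.98 (SE 0.081, adjusted p = 1.00e-07), the largest of the 37. Wars is also known as a gene that interferon gamma induces. Vars, the valyl enzyme on chromosome 17 (35000987 to 35016322), rose from 269, 243 and 246 CPM to 471, 464 and 449 CPM, with a log2 fold change of 0.87 (SE 0.071, adjusted p = 8.31e-08).

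Aars, which encodes the alanyl enzyme on chromosome 8 (111033144 to 111057664), stood at 214, 207 and 222 CPM in Th1 and at 369, 354 and 372 CPM in ALX-5407 cultures. Its log2 fold change was 0.77 (SE 0.068, adjusted p = 1.99e-07). The exons of Aars share 15.1% of their bases with other genes, mainly Exosc6 on the same strand. Exosc6 had no counts. How reads in shared bases were treated is not given, so this does not show that Exosc6 was silent. Gars, the glycyl enzyme that serves both compartments, lies on chromosome 6 (55038007 to 55079500) and is the synthetase for the amino acid that GlyT1 carries. Its values were 263, 263 and 237 CPM without and 375, 385 and 407 CPM with ALX-5407, so the groups lay well apart. The log2 fold change of Gars was 0.61 (SE 0.073, adjusted p = 3.75e-06).

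Yars, the tyrosyl enzyme on chromosome 4 (129189760 to 129219607), was counted at 122, 124 and 121 CPM in Th1 and 173, 183 and 178 CPM in ALX-5407 cultures. It rose by 0.54 on the log2 scale (SE 0.067, adjusted p = 6.57e-06). Lars, the leucyl enzyme and a member of the multisynthetase complex, went from 132, 138 and 152 CPM to 199, 194 and 206 CPM, a log2 fold change of 0.50 (SE 0.073, adjusted p = 3.23e-05). Of the other 8 cytosolic genes that rose, Mars for methionine (0.43), Nars for asparagine (0.39), Farsb, the beta subunit of the phenylalanyl enzyme (0.35), and Hars for histidine (0.27) had the larger log2 fold changes.

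The last 4 were smaller. Cars for cysteine (0.25), Iars for isoleucine (0.24), Farsa, the alpha subunit of the phenylalanyl enzyme (0.22, adjusted p = 0.0448), and Eprs, which joins the glutamyl and prolyl enzymes in 1 protein (0.19, adjusted p = 0.0384), lost their call when counts were corrected for a trend with gene length. Farsa and Eprs also lost it under several other scalings and in 5 of the 6 fits that left out 1 culture.

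Qars, the glutaminyl enzyme on chromosome 9 (108507706 to 108515941), was the only cytosolic gene that fell. Its values were 279, 288 and 301 CPM in Th1 and 233, 238 and 242 CPM in ALX-5407 cultures, with no overlap, and the log2 fold change was -0.28 (SE 0.068, adjusted p = 0.00252). Sars, for serine, was counted at 441, 455 and 389 CPM without and 454, 466 and 468 CPM with ALX-5407. These groups overlapped, and the log2 fold change of 0.11 had a 95% interval from -0.05 to 0.27. Rars for arginine (0.08, interval -0.08 to 0.25), Tars for threonine (-0.02, interval -0.16 to 0.13), Kars for lysine (-0.02, interval -0.16 to 0.13) and Dars for aspartate (-0.14, interval -0.30 to 0.01) did not pass either. Dars passed as lower under 4 of the other processing settings, among them upper-quartile scaling with a log2 fold change of -0.20 (adjusted p = 0.0398). Tars passed as lower in 1 of them, the length correction with a replicate block (-0.17, adjusted p = 0.0488).

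**Figure D2:**
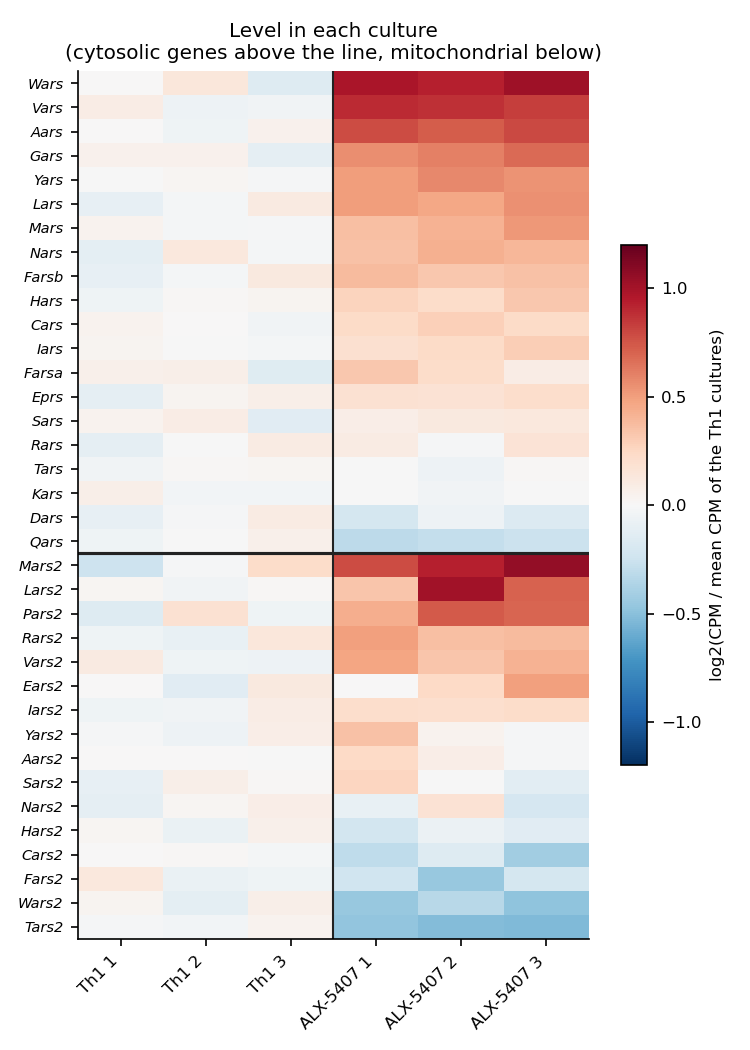
Level of 36 synthetase genes (rows, cytosolic above the horizontal line and mitochondrial below) in each of the 6 cultures (columns), as log2 of its CPM over the mean CPM of the 3 Th1 cultures, red above and blue below that mean. Wars, Vars and Aars are red in all 3 ALX-5407 cultures, Tars2 and Wars2 are blue in all 3, and Lars2 differs most among the ALX-5407 cultures, from 226 to 362 CPM.

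Cytosolic synthetases can also be grouped by the proteins they are bound to. The multisynthetase complex holds 8 of them, Eprs, Iars, Lars, Mars, Qars, Rars, Kars and Dars, on the scaffold proteins encoded by Aimp1, Aimp2 and Eef1e1. Of the 8 genes, 4 rose, 1 fell and 3 did not pass, with a median log2 fold change of 0.14, where 24.5% of all genes tested were higher. Of the 12 genes whose enzymes work outside the complex, 10 rose, none fell and 2 did not pass, with a median of 0.37, and Wars, Vars, Aars, Gars and Yars are all among them.

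The scaffold genes did not rise. Aimp1 was counted at 156 ± 7.86 CPM (SD, n = 3) in Th1 and 100 ± 2.86 CPM in ALX-5407 cultures, a log2 fold change of -0.65 (SE 0.070, adjusted p = 1.63e-06). Eef1e1 fell by 0.25 on the log2 scale (adjusted p = 0.0308), and the log2 fold change of Aimp2 was -0.22 (adjusted p = 0.080).

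By catalytic fold, 8 of the 10 class I cytosolic genes rose and 1 fell, with a median log2 fold change of 0.34, and 6 of the 10 class II genes rose and none fell, with a median of 0.24. Eprs was counted in class I, although its prolyl part belongs to class II. Among mitochondrial genes, 5 of 9 in class I rose and 2 fell, and 2 of 8 in class II rose and 2 fell. Of all genes tested, 24.5% were higher and 23.2% lower, so the mitochondrial class II shares lay near those of all genes. Of the 14 cytosolic genes that general knowledge lists as targets of ATF4, 11 rose and none fell, with a median of 0.41. Of the 6 genes not on that list (Dars, Farsa, Farsb, Hars, Kars and Qars), 3 rose and 1 fell, with a median of 0.10. The list was compiled with earlier results of these data known, so this contrast is a description.

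Amino acid response elements, through which ATF4 and C/EBP proteins act, share the core letters TGATGNAA. This core was searched on both strands of the RefSeq promoters of GRCm38.p6, from 250 bases before to 50 bases after each gene's start. Promoters were searched for 26 of the 37 genes, 12 cytosolic and 14 mitochondrial. Those of 11 others were not searched, among them Cars, Hars, Hars2, Lars, Mars, Nars, Pars2, Rars, Vars and Wars. Whether these 11 hold the core was not tested. The core was present in 5 of the 26 genes, all cytosolic. It was present in 3.97% of 32851 RefSeq promoters, a share counted by promoter and not by gene. Of the 5 genes with the core, Aars, Gars, Iars and Yars rose, Aars by most (log2 fold change 0.77), and Tars did not pass the test. Windows of 30 bases are shown for all of them but Aars. Each is written 5′ to 3′ on the gene's strand, with the core in capitals, which reads as its reverse complement in all but Yars.
Gars: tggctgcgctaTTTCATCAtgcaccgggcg
Yars: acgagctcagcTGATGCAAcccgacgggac
Iars: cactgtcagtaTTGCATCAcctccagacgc
Tars: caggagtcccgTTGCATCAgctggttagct

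These windows lie at chr6:55037960-55037989 for Gars, chr4:129189895-129189924 for Yars and chr13:49682126-49682155 for Iars, all on the + strand, and at chr15:11399655-11399684 on the - strand for Tars. Tars carried the same TTGCATCA as Iars and had a log2 fold change of -0.02, where that of Iars was 0.24. The presence of the core therefore did not go with a rise in every case, and a match is not evidence that a factor bound there.

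The E-box CACGTG, a sequence bound by MYC and related factors, was present in 7.15% of all promoters and in those of Aars, Ears2, Farsb, Iars and Tars. Of these, Aars, Farsb and Iars rose, and Ears2 and Tars did not pass the test. Ears2 was the only gene among the 14 mitochondrial ones searched whose promoter window held either sequence.

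Among the mitochondrial genes, Mars2 for methionine, on chromosome 1 (55237177 to 55248470), rose most. It was counted at 8.81, 10.3 and 12.2 CPM in Th1 and at 18.0, 19.9 and 21.7 CPM in ALX-5407 cultures, and its log2 fold change was 0.93 (SE 0.13, adjusted p = 1.79e-05).

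A further 4 mitochondrial genes rose, beside Lars2. Pars2 for proline, at levels of 5.25 to 9.76 CPM, rose by 0.63 on the log2 scale (SE 0.15, adjusted p = 0.00226). Rars2 for arginine (0.41), Vars2 for valine (0.41) and Iars2 for isoleucine (0.21, adjusted p = 0.0213) changed less. Iars2 shares 24.2% of its exon bases with other genes, mainly Rab3gap2 on the opposite strand. Its call was lost with the length correction, with upper-quartile scaling and with protein-coding genes alone. The call was also lost when Th1 culture 1 or 2, or ALX-5407 culture 1 or 2, was left out.

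The 4 mitochondrial genes that fell had treated cultures entirely below the untreated ones. Tars2, the threonyl enzyme on chromosome 3 (95739976 to 95760206), was counted at 100.1, 98.6 and 104 CPM in Th1 and at 72.5, 70.1 and 70.0 CPM in ALX-5407 cultures, and fell by 0.51 on the log2 scale (SE 0.069, adjusted p = 1.57e-05). Wars2, the tryptophanyl enzyme on chromosome 3 (99141068 to 99239186), went from 18.8, 17.0 and 19.3 CPM to 13.4, 14.6 and 13.1 CPM, a log2 fold change of -0.42 (SE 0.11, adjusted p = 0.00348).

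Fars2 and Cars2 fell less. Fars2 for phenylalanine, on chromosome 13 (36117412 to 36726280), was at 30.1, 26.1 and 26.7 CPM and then 23.3, 20.2 and 23.9 CPM, a log2 fold change of -0.30 (SE 0.099, adjusted p = 0.0200). Cars2 for cysteine, on chromosome 8 (11513977 to 11550783), was at 43.3, 43.4 and 42.4 CPM and then 34.9, 38.6 and 32.3 CPM, a log2 fold change of -0.29 (SE 0.085, adjusted p = 0.0104). The call of Fars2 was lost without Th1 culture 1 (-0.24, adjusted p = 0.0939), without ALX-5407 culture 2 (-0.22, adjusted p = 0.130) and with scaling to total counts (-0.24, adjusted p = 0.0610), and that of Cars2 without ALX-5407 culture 3 (-0.22, adjusted p = 0.0610). Fars2 shares 10.7% of its exon bases with other genes, mainly Nrn1 on the opposite strand.

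Sars2, the mitochondrial seryl enzyme, was counted at 15.9, 17.9 and 17.2 CPM in Th1 and 20.3, 16.9 and 15.6 CPM in ALX-5407 cultures, so the groups overlapped. Its log2 fold change was 0.05, with a 95% interval from -0.19 to 0.29. Ears2 for glutamate (0.26, interval -0.06 to 0.58), Yars2 for tyrosine (0.14), Aars2 for alanine (0.10), Nars2 for asparagine (-0.03) and Hars2 for histidine (-0.14, interval -0.33 to 0.05) did not pass either. Hars2 passed as lower with the length correction (-0.27, adjusted p = 0.0177). Ears2 was the least precise of the 37, at 6.25 to 9.70 CPM with an SE of 0.15. Hars2 and Hars lie head to head and share 4.56% and 7.97% of their exon bases, and whether counting used the strand is not given in the sources used here.

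Lars2, the mitochondrial leucyl enzyme on chromosome 9 (123366927 to 123462666), stood apart from the other synthetase genes in its spread. It was counted at 183, 175 and 181 CPM in the Th1 cultures and at 226, 362 and 294 CPM in the ALX-5407 cultures, a log2 fold change of 0.71 (SE 0.12, adjusted p = 0.000117). Among the ALX-5407 cultures its highest value was 1.60 times its lowest, while this ratio was at most 1.41 in the other 36 genes, with a median of 1.09.

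An rRNA gene and 2 other non-coding genes, all chosen after their values were seen, are given next to Lars2. The rRNA gene CT010467.1 on chromosome 17 (39846353 to 39848827), was at 231, 172 and 241 CPM in Th1 and at 376, 497 and 428 CPM in ALX-5407 cultures, a log2 fold change of 1.02 (adjusted p = 2.65e-06). Gm23935, annotated as a miRNA on chromosome 16, was at 213, 157 and 235 CPM and then 298, 496 and 389 CPM. In Lars2, CT010467.1 and Gm23935 alike, ALX-5407 culture 2 was the highest and culture 1 the lowest of the treated cultures. The lincRNA Gm26917, which ends next to CT010467.1, went the other way, from 848, 727 and 656 CPM to 460.0, 387 and 274 CPM. The part of ribosomal RNA content in the Lars2 value was not tested.

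**Figure D3:**
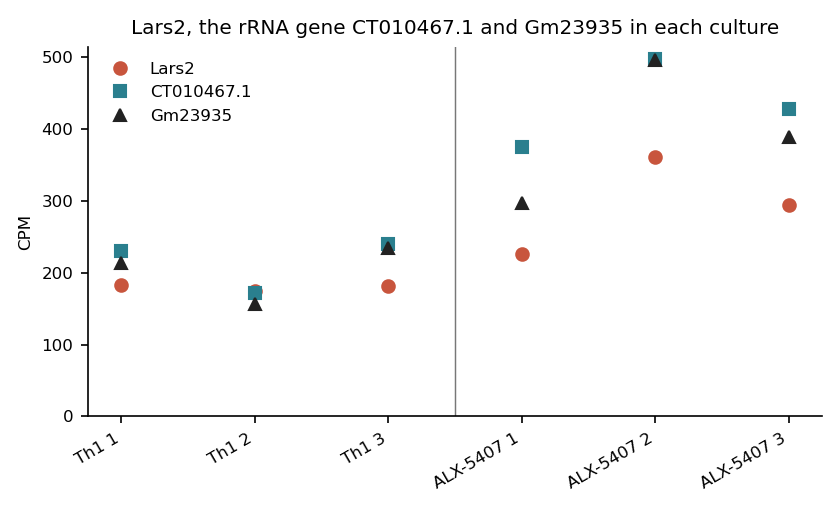
CPM (y axis, from 0) of Lars2, the rRNA gene CT010467.1 and Gm23935 in each of the 3 Th1 and 3 ALX-5407 cultures (x axis), 1 point per culture. In the ALX-5407 cultures all 3 genes are lowest in culture 1 and highest in culture 2, where Lars2 reaches 362 CPM.

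Summed over genes, the cytosolic synthetases made up 4035 ± 49.4 CPM (SD, n = 3) in Th1 and 4965 ± 59.8 CPM in ALX-5407 cultures, a ratio of 1.23. The mitochondrial sum was 645 ± 17.1 and 765 ± 63.2 CPM. Without Lars2 it was 465 ± 14.3 and 471 ± 7.01 CPM, so nearly all of the increase of the sum was Lars2. The mitochondrial share of all synthetase counts was 13.8 ± 0.403% and 13.3 ± 0.925%, and without Lars2 it was 10.3 ± 0.334% and 8.66 ± 0.209%, with every ALX-5407 culture below every Th1 culture in the latter. Without Lars2 the mitochondrial list counted 6 genes higher and 4 lower, with a median log2 fold change of 0.12.

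Levels between genes were compared per kilobase of the gene length in the table. In Th1 cultures the cytosolic genes had a median of 37.2 CPM per kilobase (13.2 to 106) and the mitochondrial genes 4.81 (0.925 to 16.2). Nars had the highest level, 106 ± 9.31 CPM per kilobase (SD, n = 3), followed by Sars at 83.4 ± 6.74 and Gars at 81.5 ± 4.87, the latter pair within each other's spread. Lars2 at 16.2 ± 0.390 and Tars2 at 14.5 ± 0.370 were the only mitochondrial genes within the cytosolic range, where Wars at 14.6 ± 1.47 and Farsa at 13.2 ± 1.10 were the lowest. Mars2 was the lowest of all at 0.925 ± 0.149 CPM per kilobase, below Ears2 at 1.34 ± 0.119 and Pars2 at 1.89 ± 0.236. This order rests on the listed lengths, 11294 bases for Mars2, 5152 for Ears2 and 3094 for Pars2. In CPM Mars2 (10.4) lay above Ears2 (6.88) and Pars2 (5.86). Whether the listed lengths are those of the transcripts expressed was not tested. With ALX-5407, Wars stood at 28.9 ± 0.866 and Tars2 at 10.2 ± 0.204 CPM per kilobase, having been within each other's spread in Th1 cultures.

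The comparison of a cytosolic gene with the mitochondrial gene for the same amino acid within each culture does not depend on the scaling between libraries. It was made for 18 pairs, 14 of them one to one, while Farsa and Farsb were both set against Fars2, and Eprs against both Ears2 and Pars2. Gars, Kars and Qars have no mitochondrial partner. The log2 ratio of cytosolic to mitochondrial counts did not overlap between the groups in 14 pairs, and it was higher with ALX-5407 in 10 of these and lower in 4. How often the ratios of other gene pairs fail to overlap was not computed, so these counts have no background share. In an exact two-sided permutation test each of the 14 reached p = 0.1, the lowest that 3 against 3 cultures allow, which became 0.129 after Benjamini-Hochberg adjustment over the 18 pairs, so no pair passed a threshold of 0.05.

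The widest difference was that of the tryptophanyl pair. The log2 ratio of Wars to Wars2 was 1.43, 1.71 and 1.23 in Th1 and 2.89, 2.73 and 2.96 in ALX-5407 cultures, a difference of 1.40 between the means. Here the cytosolic gene rose and the mitochondrial gene fell, as they did for Cars and Cars2 (difference 0.54) and for Farsb (0.65) and Farsa (0.51) against Fars2. The ratio of Aars to Aars2 was 3.39, 3.34 and 3.45 and then 3.94, 4.04 and 4.20, a difference of 0.67, with a rise of the cytosolic gene alone passing the test. The differences for Vars (0.46), Nars (0.43), Yars (0.41) and Hars (0.41) against their partners had the same direction, and for Vars both genes rose.

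The threonyl pair changed through its mitochondrial member. The log2 ratio of Tars to Tars2 was 0.50, 0.59 and 0.52 in Th1 and 1.01, 1.00 and 1.07 in ALX-5407 cultures, with Tars2 lower and Tars not passing the test. In 4 pairs the ratio was lower with ALX-5407. Among these, the log2 ratio of Mars to Mars2 was 3.96, 3.67 and 3.44 in Th1 and 3.26, 3.16 and 3.14 in ALX-5407 cultures, a difference of -0.51. The ratio differed by -0.44 for Eprs and Pars2 and by -0.33 for Rars and Rars2.

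The groups overlapped in the 4 remaining pairs. The differences were 0.07 for Sars and Sars2, 0.03 for Iars and Iars2, -0.06 for Eprs and Ears2, and -0.18 for Lars and Lars2. By calls of the single genes, both members rose in 5 pairs, and the cytosolic gene alone passed the test, as higher, in 5. The cytosolic gene rose and the mitochondrial fell in 4. Among these 4, the Farsa and Farsb pairs share Fars2, and Farsa, Fars2, Cars and Cars2 lost their call in some alternatives. The mitochondrial gene alone passed in 3, as higher in 2 and lower in 1, and neither member passed in 1.

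**Figure D4:**
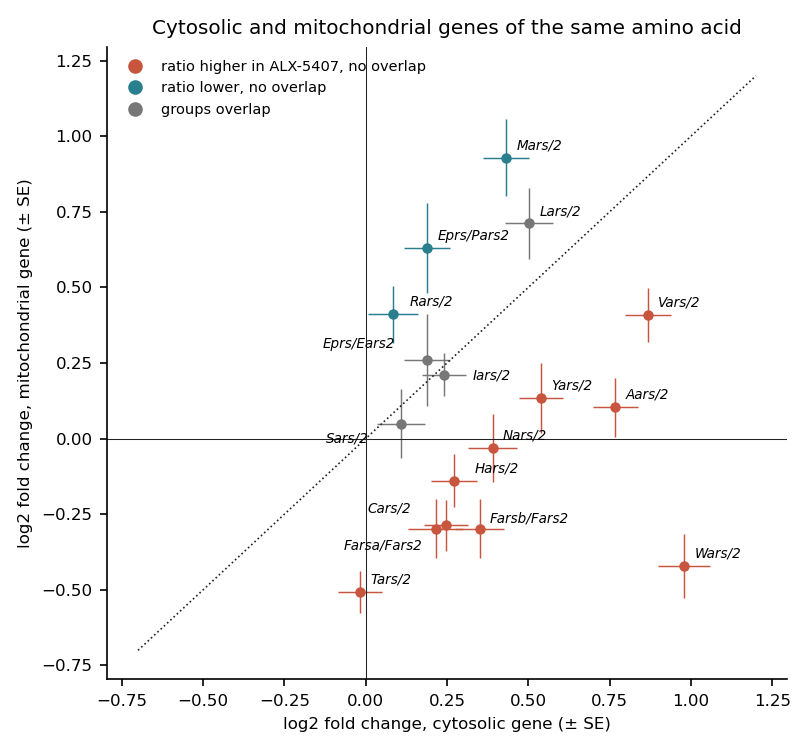
Log2 fold change of the mitochondrial gene (y axis) against that of the cytosolic gene (x axis) for 17 pairs of the same amino acid, with bars of 1 SE and a dotted line where both are equal ("Wars/2" stands for Wars and Wars2). Colour shows whether the within-culture ratio of the pair was higher (10 pairs) or lower (3) with ALX-5407 without overlap of the groups, or overlapped (4); the Wars pair lies farthest from the line.

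Other genes that make, charge, carry and use tRNA were counted from lists written from general knowledge. Beside these counts, 24.5% of all genes tested were higher and 23.2% lower. Among 9 tested genes for synthetase-related and editing proteins, none rose, 2 fell and 7 did not pass, with Prorsd1 at a log2 fold change of -0.80 (adjusted p = 1.44e-05) and Dtd1, which removes D-amino acids from tRNA, at -0.38 (adjusted p = 0.00404). Among 10 genes of mitochondrial charging and translation factors, 4 rose and 1 fell. The initiation factor Mtif3 fell by 0.51 on the log2 scale, the elongation factors Tsfm (0.46) and Gfm1 (0.21) rose, and Gfm2 (0.23) rose too.

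Selenocysteine is made on a tRNA that Sars charges with serine. Of 6 genes of this route, 3 rose and 1 fell. Sephs2, which makes selenophosphate, rose by 1.05 on the log2 scale (32.1 ± 1.64 to 66.2 ± 5.84 CPM, adjusted p = 7.69e-08), past the study's fold threshold, and Sephs1 (0.80) and the elongation factor Eefsec (0.63) rose as well. Pstk, the kinase that phosphorylates the seryl group on this tRNA, fell by 0.32.

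Of 8 genes of tRNA export and cytosolic elongation, 3 rose and 3 fell. Xpot, the exportin that carries tRNA out of the nucleus, rose from 129 ± 1.86 to 221 ± 7.88 CPM (log2 fold change 0.77, adjusted p = 1.71e-07), a change as large as that of Aars. Eef1g rose by 0.25, and Eef1b2 and Eef1a1, the factor that delivers charged tRNA to the ribosome, fell by 0.54 and 0.24. Of 21 genes of tRNA processing, 6 rose and 4 fell, with a median log2 fold change of 0.24, led by Elac2 (0.43), Trmt10c (-0.35), Rpp14 (0.37) and Pop1 (0.33). Of 21 genes of RNA polymerase III and its factors, 7 rose and 3 fell, with a median of 0.10, led by Gtf3c1 (0.49), Crcp (-0.57), Gtf3c4 (0.60) and Polr3e (0.43). In both of these lists of 21 genes the share called lay near the 47.7% of all genes tested.

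The amino acid response list, which holds transporters, enzymes and regulators and no synthetase, had 27 of 38 genes higher and 5 lower, with a median log2 fold change of 0.72 beside the 0.26 of the cytosolic synthetases. The smallest p-values were those of the transporters Slc7a5 (1.73) and Slc7a3 (2.05), the pseudokinase Trib3 (1.63) and Cth (1.44), which makes cysteine. Atf4 mRNA itself, chosen after its value was seen, fell from 415 ± 34.2 to 258 ± 7.90 CPM (log2 fold change -0.69, adjusted p = 1.81e-06). The other genes of the list that fell were Nupr1 (-0.57), Ppp1r15a (-0.47), Ddit3 (-0.47) and Atf3 (-0.27). The list was compiled with earlier results of these data known, so its direction is a description.

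**Figure D5:**
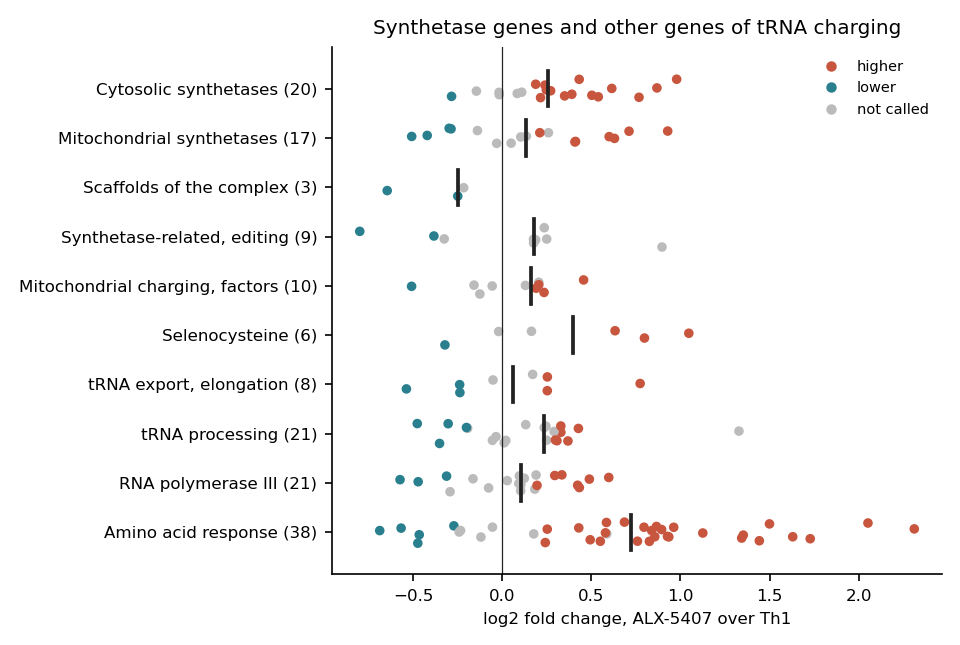
Log2 fold change of ALX-5407 over Th1 cultures (x axis) for each tested gene of the synthetase lists and 8 related lists (rows, number of tested genes in brackets), with a black bar at the median of each list and vertical jitter only for legibility. Coloured points passed adjusted p under 0.05; the medians are 0.26 and 0.14 for the cytosolic and mitochondrial synthetases, -0.25 for the scaffolds and 0.72 for the amino acid response list.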

How the data were processed

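RNA of 6 cultures was sequenced, 3 Th1 and 3 ALX-5407. The authors deposited raw counts, whole numbers of reads per gene and library, with gene names, lengths and mm10 (GRCm38) coordinates. Per the submitters' processing notes, fastp, HISAT2 2.0.5 and featureCounts 1.5.0-p3 were used; the treatment of strand and of reads with several matches is not given in the sources used here. The groups follow the sample labels.

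Counts were tested with edgeR 4.0.16 in R 4.3.3 (filterByExpr with a minimum count of 10 and a minimum total of 15, TMM factors of 0.965 to 1.03, quasi-likelihood F test, Benjamini-Hochberg adjustment over 15938 genes). Standard errors were obtained from the fold change and its F statistic, and 95% intervals from the t distribution. The biological coefficient of variation was 0.0978, and replicates differed by more than counting noise (chi-square over degrees of freedom 5.65 to 22.4). The procedure was tested on simulated counts.

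The synthetase genes and all lists were chosen with earlier results of these data known. Values in every culture are given for the 6 cytosolic and 4 mitochondrial genes with the smallest p-values, genes called against most of their list, Gars and the serine enzymes. The values of 1 mitochondrial gene, which is in the counts, medians and sums, are not reported here. In other lists at most 4 genes with the smallest p-values, all scaffold genes, and the amino acid response genes that fell were named. Exon overlaps come from GENCODE M21, in which 34 of the 37 genes have the same bounds as in the table, and promoters from RefSeq. Alternatives were other scalings and filters, DESeq2 1.42.0, limma-voom (limma 3.58.1), a length correction, a replicate block, and each culture left out in turn. Figures were drawn with matplotlib 3.10.9 in Python 3.11.15.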

Additional observations from a re-analysis of the deposited data

How the results depend on the processing

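No member that passed the test changed direction in any alternative. Of 629 comparisons of a single gene with an alternative, 565 kept direction and call, 39 lost the call, 7 gained it, and 18 were sign changes of genes that did not pass. Of the 21 genes called higher, 16 kept the call in every setting, and of the 5 called lower, 3 did; the exceptions were Cars, Eprs, Farsa, Iars and Iars2, and Cars2 and Fars2. The cytosolic list had 2 genes lower instead of 1 with upper-quartile scaling, with protein-coding genes alone and with the length correction. Its genes higher numbered 10 instead of 14 with the length correction and 13 with DESeq2. They numbered 12 with RLE scaling, upper-quartile scaling, a mean of at least 50 counts and protein-coding genes alone. Its median log2 fold change of 0.26 became 0.21 with upper-quartile scaling, 0.32 with total counts only, 0.23 with a mean of at least 50 counts, 0.21 with protein-coding genes alone and 0.20 with the length correction. With the length correction the mitochondrial list had 6 genes higher and 5 lower, and its median of 0.14 became 0.049. The cause was not tested. With an absolute log2 fold change over 1 required, all 4 counts were 0 (edgeR, adjusted p) with the main settings. Wars passed this limit with total counts only (1.04), without Th1 culture 2 (1.04) and without ALX-5407 culture 2 (1.01), and Mars2 without Th1 culture 3 (1.04) and without ALX-5407 culture 1 (1.00). At adjusted p under 0.01 the mitochondrial genes lower were 2. Leaving out Gars and Kars gave 13 cytosolic genes higher and 1 lower. Leaving out Lars2, chosen after seeing the data, gave 6 mitochondrial genes higher and 4 lower.

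Leaving out each culture in turn gave 12 to 13 cytosolic genes higher and 1 lower, 6 to 7 mitochondrial genes higher and 3 to 4 lower, a cytosolic median of 0.24 to 0.28 and a mitochondrial median of 0.036 to 0.18, the lowest without ALX-5407 culture 1. The groups share replicate numbers, but the deviations of same-numbered cultures correlated at only -0.0084, 0.00355 and 0.0635, so the numbers were not taken as pairs. With the replicate block, 14 cytosolic genes were higher and 1 lower, 7 mitochondrial genes were higher and 4 lower, and no call changed. The block with the length correction gave 10 cytosolic genes higher and 3 lower, a cytosolic median of 0.20 and a mitochondrial median of 0.047. With counts of 171 to 364 per library, Pars2 had the least depth of the 37 genes.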
